A study of Oedaleus asiaticus with 9 samples.

Results

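The 5th nymphal instar of female *Oedaleus asiaticus*, a grasshopper of Asian grassland, was compared with the 3rd nymphal instar by sequencing of small RNAs. All nymphs were females aged 3 days within their instar, and all were kept on ordinary food with no treatment. The comparison used 6 of the study's 9 libraries, 3 of the 5th and 3 of the 3rd instar, chosen by the stage on their labels. The other 3 libraries, of adults 3 days after emergence, entered the count filters, the scaling factors and the estimate of the spread. They thus helped to decide which entries were tested. The labels give no strain and no body part, and nothing says whether a library held 1 animal or a pool or whether the 3 libraries of a stage are separate animals. All p-values here therefore rest on the spread between libraries alone, which may be technical. In these bulk samples, fewer cells of a type and less of an RNA per cell cannot be told apart. The table holds 365 miRNA entries, 291 with the name of a known family and 74 predicted by the authors. Of these, 179 had enough counts to be tested, 151 known and 28 predicted.

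A microRNA is cut from a hairpin precursor, and either arm of the hairpin can be kept as a mature strand. Its seed, bases 2 to 8, pairs with target mRNAs, so entries with 1 seed can share targets, whereas added bases at the 3′ end leave the seed as it was. Grasshopper nymphs grow by moulting without a pupal stage. Pulses of the steroid ecdysone start each moult, and juvenile hormone, acting through the transcription factor Kr-h1, keeps the moult nymphal. In flies and locusts, miRNAs such as let-7, miR-14, miR-8, miR-71 and miR-278 act on these pathways.

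The mature sequences below are those of the entries on which the results turn, from the deposited table, 5′ to 3′ with T for U and the seed in capitals. The lines down to miR-14-z hold the entries past the adjusted p of 0.05, other than one with a vertebrate family name, and nested partners. The nested partner of miR-2765-x, miR-2765-z with 2 more bases, is not shown. The rest are pairs that share a sequence or differ only at the 3′ end, and entries described below by their values.
predicted 23 nt entry: aGTTGGAAgtggggatctcggca
miR-750-x: aGTTGGAAgtggggatctcggcat
miR-2765-x: tGGTAACTccaccaccgttggc
miR-14-y: tCAGTCTTtttctctctcctat
miR-14-z: tCAGTCTTtttctctctcctattt
miR-71-x: tGAAAGACatgggtagtgagat
miR-71-z: tGAAAGACatgggtagtgagatga
miR-317-y: tGAACACAgctggtggtatct
miR-317-z: tGAACACAgctggtggtatctct
miR-252-x: aTAAGTAGtagtgccgcaggtg
miR-251-z: aTAAGTAGtagtgccgcaggtg
miR-993-y: gAAGCTCGactctacaggtatct
let-7-x: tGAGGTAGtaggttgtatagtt
miR-125-x: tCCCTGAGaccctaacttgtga
miR-307-y: tCACAACCtccttgagtgagc
miR-67-y: tCACAACCtccttgagtgag

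The 5th instar libraries total 2010196, 1918962 and 2282357 counts, and those of the 3rd instar 3042011, 3137710 and 5309504 counts. A predicted 18 nt entry took 65.5%, 67.2% and 61.2% of each 5th instar total, against 66.3%, 74.0% and 71.5% of each 3rd instar total. Its share overlapped between the stages and differed by -5.99 percentage points (two-sided exact permutation p = 0.2, where 3 against 3 libraries cannot go below 0.1). On the TMM scale explained next, it had 638226, 612150 and 524746 CPM in the 5th instar, against 674416, 866417 and 836342 CPM in the 3rd, without overlap (log2 fold change -0.42 ± 0.20, edgeR adjusted p = 0.269). Because it takes most counts, a drop in its share raises the raw share of nearly all others, so libraries were scaled by TMM factors, which rest on the bulk of the entries. With library totals alone the median log2 fold change over all entries would move by 0.29. Levels below are CPM, the depth-scaled counts that edgeR gives with the TMM factors. The most abundant known miRNA, miR-276-y, of a family that promotes synchronous hatching in locusts, had 136895, 121119 and 143019 CPM in the 5th and 137420, 122223 and 140391 CPM in the 3rd instar, a log2 fold change of 0.0036 ± 0.15 (SE).

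Most miRNAs differed little between the nymphal stages. The median log2 fold change of the 179 tested entries, 5th over 3rd instar, was 0.0036 with quartiles of -0.33 and 0.31, and the signs split 90 positive to 89 negative. Of the 27 entries at 1000 CPM or more, 25 differed by less than 1.5-fold in either direction. The plot of abundance against change shows how the spread of the fold changes widens towards rare entries.

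**Figure D1:**
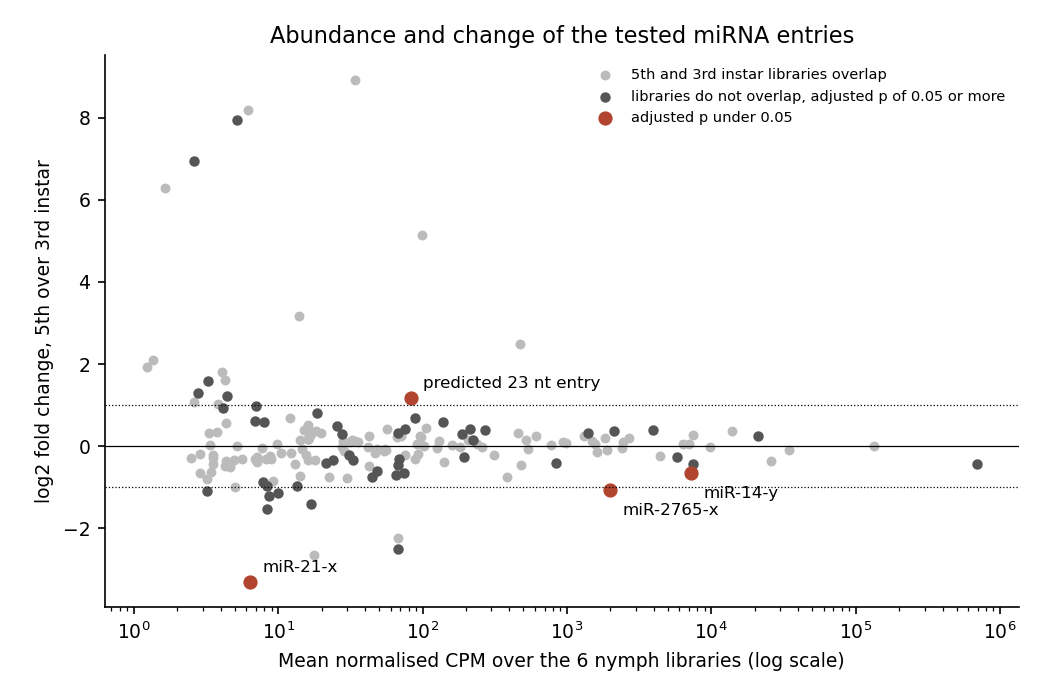
Each point is 1 of 179 tested entries, with its mean normalised CPM over the 6 nymph libraries on a log axis and its log2 fold change, 5th over 3rd instar; dotted lines mark 1 and -1. The 4 entries with an adjusted p under 0.05 are named, and the fitted values above 6 belong to entries with 0 or 1 count in the whole 3rd instar, which depend on the prior count of the fit.

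A call needed a Benjamini-Hochberg adjusted p under 0.05 in edgeR's quasi-likelihood fit together with a change of over 1 log2 unit. By this rule 3 of the 179 entries (1.68%) were called, 1 higher (0.559%) and 2 lower (1.12%). Without replicate 3 of the 3rd instar, or replicate 1 or 3 of the 5th, 1 call was left, that of the predicted 23 nt entry. A further entry passed the adjusted p alone, 4 in all (2.23%). The unadjusted p was under 0.05 for 31 entries (17.3%), of which 16 (8.94%) were higher and 15 (8.38%) lower at the later stage. For 52 entries (29.1%), the 3 libraries of 1 stage all lay above the 3 of the other, 25 with the 5th instar on top (14%) and 27 with it below (15.1%).

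The predicted 23 nt entry had 108.5, 129.7 and 105.96 CPM in the 5th instar, against 50.5, 57.4 and 44.7 CPM in the 3rd. Every 5th instar library lay above every 3rd instar library. It rose 2.25-fold (log2 fold change 1.17 ± 0.17, SE; edgeR adjusted p = 0.00233) and was the one call in the upward direction. The entry was called in each of the 19 settings in which it was fitted. It is 1 base shorter than miR-750-x, of an insect family, and a read could be given to either. That longer entry had 16.96, 27.1 and 12.4 CPM in the 5th and 18.05, 12.3 and 9.26 CPM in the 3rd instar, which overlap (log2 fold change 0.51 ± 0.43, edgeR adjusted p = 0.562). The most abundant entry of that family, miR-750-y, averaged 6489 ± 927 CPM in the 5th and 6197 ± 582 CPM in the 3rd instar (SD, n = 3 each), a log2 fold change of 0.066 ± 0.16.

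miR-2765-x, of a family known from insects, had 1134, 1549 and 1166 CPM in the 5th instar, against 2613, 2281 and 3119 CPM in the 3rd. The stages did not overlap, and the 5th instar level was 0.480 of the other (log2 fold change -1.06 ± 0.16, edgeR adjusted p = 0.00233). Its longer form miR-2765-z, at 3.88, 11.4 and 8.64 CPM in the 5th and 12.03, 5.60 and 12.1 CPM in the 3rd instar, overlapped between stages (log2 fold change -0.32 ± 0.57). The call for miR-2765-x held in 15 of 19 settings. It ended without replicate 1 of the 5th instar (log2 change -0.93, edgeR adjusted p = 0.108) and with library totals alone (-0.77, adjusted p = 0.0669), and the fold limit alone was missed without replicate 3 of either stage.

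miR-14-y acts in flies on the ecdysone receptor, on fat metabolism and against cell death. It had 5892, 4834 and 6261 CPM in the 5th instar, against 10270, 8478 and 7816 CPM in the 3rd, so that it ranked 10th in abundance over the nymphs. The stages did not overlap. It fell to 0.639 of the 3rd instar level (log2 fold change -0.65 ± 0.15, edgeR adjusted p = 0.0484), a change under the fold limit. Its form with 2 more bases, miR-14-z, had 4.85, 5.70 and 6.39 CPM in the 5th and 16.04, 8.21 and 9.04 CPM in the 3rd instar (log2 fold change -0.96 ± 0.44, adjusted p = 0.269). Both forms were lower in every 5th instar library than in any 3rd instar library. The adjusted p of miR-14-y passed in 5 of 19 settings and reached 0.298 without replicate 1 of the 3rd instar.

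miR-21-x bears the name of a family known from vertebrates. It had 1.45, 0 and 1.88 CPM in the 5th instar, against 17.7, 7.09 and 10.4 CPM in the 3rd (log2 fold change -3.31 ± 0.75, edgeR adjusted p = 0.0484). The stages did not overlap, at levels near the floor of 3 counts, which is 1.31 to 1.56 CPM of the library totals in the 5th instar. The call held in 5 of 18 settings, and it ended without any single nymph library (edgeR adjusted p 0.0527 to 0.298). A list of vertebrate families was set beside it. Of the 34 families in that list 15 had no entry in the table, and the 20 entries of the other 19 summed to 43.1, 23.7 and 57.1 CPM in the 5th and 220.6, 63.0 and 198.4 CPM in the 3rd instar, which do not overlap. In replicates 1 and 3 of the 3rd instar most of that sum is miR-143-y, whose values follow. All 5 tested members were lower in the 5th instar (median -1.52, against 0.0036 over all tested entries), and 1 passed the adjusted p, as did 2.23% of all tested entries. miR-143-y had 24.7, 9.50 and 26.7 CPM in the 5th instar, against 168.4, 29.5 and 148.8 CPM in the 3rd (log2 fold change -2.50 ± 0.70, adjusted p = 0.166), and it passed without replicate 2 of the 3rd instar (edgeR adjusted p = 0.00591). miR-29-y was at 0.969, 3.80 and 7.89 CPM in the 5th and 12.4, 17.2 and 7.93 CPM in the 3rd instar (log2 fold change -1.52 ± 0.58, adjusted p = 0.195). Its stages nearly met, at 7.89 and 7.93 CPM. miR-22-y and miR-30-x overlapped between stages, at log2 fold changes of -0.63 ± 0.76 and -0.44 ± 0.93. The part of these entries in the other results was not tested. The list of 20 plant families had no entry in the table.

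**Figure D2:**
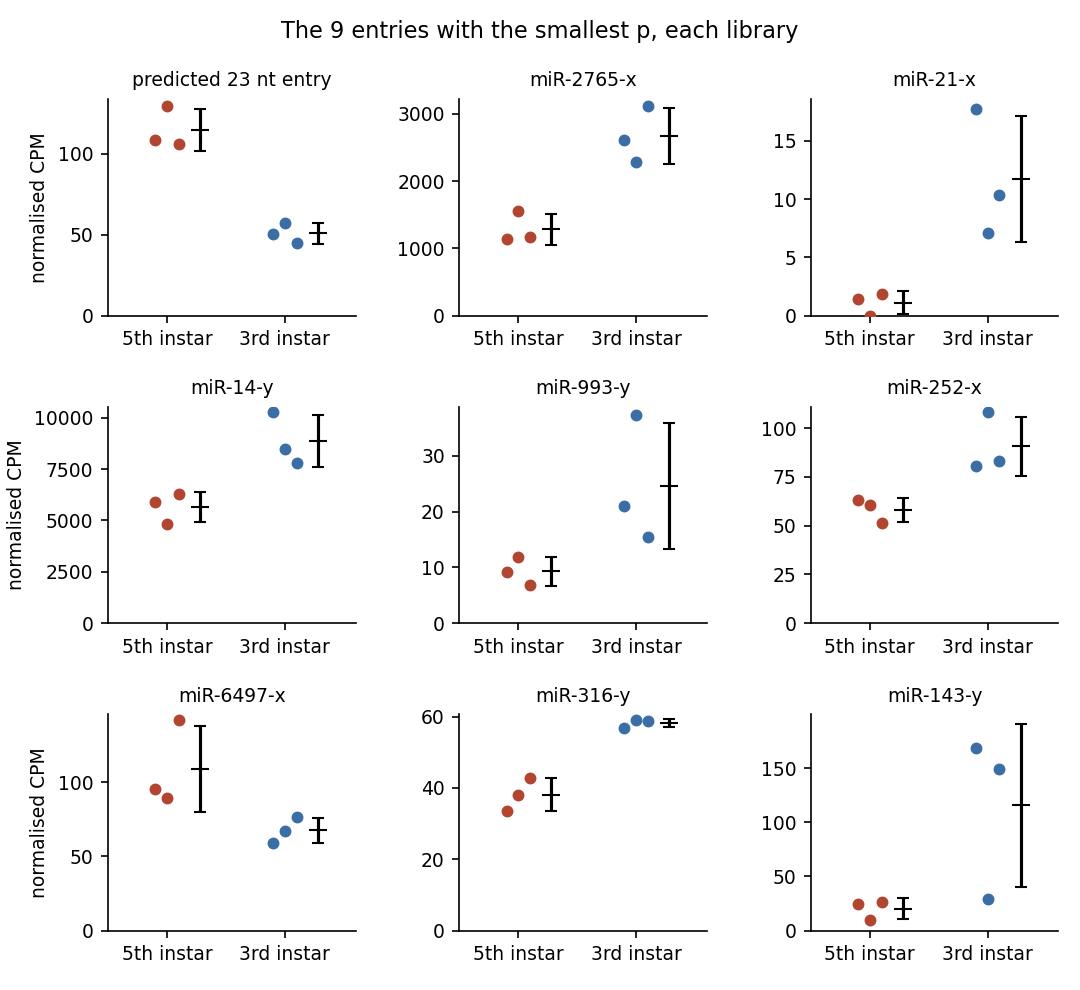
Normalised CPM in each nymph library (points) with the mean and SD (bar at the side; n = 3 per stage) for the 9 entries with the smallest p, 5th instar on the left of each panel. None of the 9 overlaps between stages; the predicted 23 nt entry and miR-6497-x are higher in the 5th instar and the other 7 are lower.

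Below the 4 entries past the adjusted p, the next by p did not pass. miR-993-y, which belongs to the wider miR-10 group, had 9.21, 11.9 and 6.76 CPM in the 5th instar, against 21.1, 37.3 and 15.4 CPM in the 3rd (log2 fold change -1.40 ± 0.38, edgeR adjusted p = 0.106). miR-252-x had 62.99, 60.3 and 51.1 CPM in the 5th and 80.5, 108.2 and 83.3 CPM in the 3rd instar (log2 fold change -0.64 ± 0.20, adjusted p = 0.166). Its sequence is that of miR-251-z letter for letter, yet the table gives the pair different counts, and miR-251-z stood at -0.74 ± 0.24 (adjusted p = 0.182). Reads of the pair cannot be told apart by sequence. miR-6497-x was higher in the 5th instar, at 95.4, 89.3 and 141.7 CPM, against 59.2, 66.8 and 76.3 CPM in the 3rd (log2 fold change 0.69 ± 0.22, adjusted p = 0.166). miR-316-y was lower, at 33.4, 38.0 and 42.8 CPM in the 5th and 56.8, 58.9 and 58.8 CPM in the 3rd instar (log2 fold change -0.61 ± 0.19, adjusted p = 0.166). miR-980-y, which limits memory in flies, was at 5.33, 5.22 and 4.13 CPM in the 5th and 1.67, 1.87 and 1.32 CPM in the 3rd instar (log2 fold change 1.58 ± 0.56, adjusted p = 0.195). In each of these the stages did not overlap, as in 29.1% of all tested entries.

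Among miRNAs of ecdysone signalling and moulting, the 5th instar had the higher level for 9 of 22 tested entries and the lower level for 13 (median log2 fold change -0.075, against 0.0036 over all entries). With library totals alone 14 were higher. One of the 22, miR-14-y, passed the adjusted p, as did 2.23% of all entries. miR-71-x controls chitin metabolism at the moult of locusts together with miR-263. It had 695.3, 786.0 and 694.4 CPM in the 5th instar, against 974.8, 1100 and 823.0 CPM in the 3rd, without overlap (log2 fold change -0.41 ± 0.15, adjusted p = 0.195). The longer miR-71-z was lower by more (-1.21 ± 0.46, adjusted p = 0.195), and miR-71-y, of another sequence, was at 0.12 ± 0.22. miR-263-x overlapped between stages at 14.5 ± 5.82 CPM in the 5th and 16.7 ± 7.43 CPM in the 3rd instar (SD, n = 3 each). miR-34-x, which ecdysone lowers in flies, had 118.7, 133.9 and 113.1 CPM in the 5th and 119.6, 165.6 and 190.4 CPM in the 3rd instar, which overlap (log2 fold change -0.38 ± 0.19, adjusted p = 0.287). Entries of miR-8 and miR-281 all overlapped, with log2 fold changes from -0.36 to 0.25.

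The let-7 complex times late development in flies, where its members rise with ecdysone at metamorphosis. In these nymphs 6 of its 8 tested entries were higher in the 5th instar, with a median of 0.25. Of the 8, 4 lay above every 3rd instar library, against 14% of all tested entries. These 4 were let-7-x, let-7-z, miR-125-x and miR-125-z. Each z entry is its x entry with 1 base more, so they are nested pairs and not 4 separate members. None of the 8 passed the adjusted p, and 2 had an unadjusted p under 0.05, against 17.3% of all tested entries. With library totals alone all 8 were higher. let-7-x had 2616, 2403 and 2140 CPM in the 5th instar, against 1871, 1907 and 1782 CPM in the 3rd (log2 fold change 0.36 ± 0.15, edgeR adjusted p = 0.221). miR-125-x had 1586, 1543 and 1548 CPM in the 5th and 1192, 1432 and 1128 CPM in the 3rd instar (log2 fold change 0.32 ± 0.13, adjusted p = 0.221). Both lay above every 3rd instar library, at 1.29-fold and 1.25-fold of its mean, while miR-100-x overlapped (0.20 ± 0.14). The lower pair was let-7-y and miR-125-y, at -0.063 ± 0.23 and -0.16 ± 0.38.

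In the list on juvenile hormone and Kr-h1, 7 of 11 were higher (median 0.075) and none passed the adjusted p. miR-278-y, which with let-7 acts on Kr-h1 in locusts, had 295.1, 255.5 and 366.4 CPM in the 5th instar, against 234.9, 220.4 and 241.6 CPM in the 3rd (log2 fold change 0.40 ± 0.19, adjusted p = 0.269). The miR-2 family, which acts on Kr-h1 in cockroaches, overlapped between stages: miR-2-y and miR-13-y were at 0.053 ± 0.12 and 0.075 ± 0.14. The K-box list, which holds these and miR-11-y (-0.099 ± 0.22), had a median of 0.064 over 4 entries, all overlapping.

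In the growth and insulin list 8 of 14 tested entries were higher (median 0.11). Of the 14, miR-14-y alone passed the adjusted p, against 2.23% of all tested entries. bantam-y, a growth-promoting miRNA that prevents cell death in flies, had 23043, 22443 and 22663 CPM in the 5th instar, against 21209, 18786 and 17347 CPM in the 3rd. It did not overlap, and the log2 fold change was 0.25 ± 0.17 (adjusted p = 0.440). The abundant miR-305-x overlapped (0.27 ± 0.16), while the rare miR-305-y and miR-305-z, at averages of 3.97 and 6.19 CPM in the 5th and 1.59 and 2.60 CPM in the 3rd instar, had log2 fold changes of 1.30 ± 0.70 and 1.22 ± 0.66. Their cluster partner in insects, miR-275-y, was at -0.038 ± 0.15. miR-277-y, which controls the breakdown of branched-chain amino acids in flies, was at 0.20 ± 0.20. Its cluster partners split, with miR-317-z lower at 46.0, 50.3 and 53.7 CPM in the 5th, against 64.5, 79.8 and 101.4 CPM in the 3rd instar (-0.71 ± 0.27, adjusted p = 0.195), and miR-317-y at 0.13 ± 0.13.

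Neuron markers were lower in 7 of 8 tested entries, with a median of -0.28, and 6 of the 8 lay below every 3rd instar library, against 15.1% of all tested entries; with library totals alone the split was 4 and 4. Several of the 8 come from the same families, with miR-9-x, miR-9-y and miR-9-z of miR-9 and miR-279-y and miR-279-z of miR-279, so they are not 8 separate members. None passed the adjusted p. Against 17.3% of all tested entries, 1 of the 8 had an unadjusted p under 0.05. This was miR-279-z, which shapes sensory neurons in flies, at 6847, 5409 and 6806 CPM in the 5th instar, against 9092, 7694 and 9011 CPM in the 3rd (log2 fold change -0.44 ± 0.14, edgeR adjusted p = 0.182). The entry miR-9-z, of a family that limits sense organ precursors in flies, had 5482, 5323 and 4920 CPM in the 5th and 6990, 5768 and 6148 CPM in the 3rd instar (-0.27 ± 0.13, adjusted p = 0.282). The others without overlap were miR-9-x (-0.25 ± 0.17), miR-7-x (-0.30 ± 0.22), miR-137-y (-0.42 ± 0.32) and miR-124-y (-1.09 ± 0.66), the last at 2.00 ± 0.916 CPM in the 5th and 4.40 ± 1.68 CPM in the 3rd instar (SD, n = 3 each). Over the listed entries, the neuron markers summed to 14712, 13075 and 13836 CPM in the 5th instar and 18467, 15896 and 17675 CPM in the 3rd, which miR-279 and miR-9 supply almost wholly. Outside the list, miR-996-z, which has the seed of miR-279, was higher in the 5th instar (log2 fold change 0.24). The part of nervous tissue in these values was not tested.

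Muscle markers overlapped between stages in all 4 tested entries. miR-1-y, the main muscle miRNA, had 9176, 10012 and 10120 CPM in the 5th instar, against 10095, 11038 and 8318 CPM in the 3rd (log2 fold change -0.0070 ± 0.17), and miR-133-z was at -0.0074 ± 0.17. Their signs turn with the scaling, and all 4 were higher with library totals alone. In the Hox cluster list, whose 7 tested entries hold only 4 sequences because iab-4-x is listed under 4 names, the 5 higher entries (6 with library totals) overlapped and miR-993-y was the one without overlap. miR-10-x, the most abundant of them, was at 0.15 ± 0.16. Of the 22 tested entries of insect families 13 were higher (median 0.049). Of the 22, miR-2765-x was the one that passed the adjusted p, against 2.23% of all tested entries. miR-283-x had a log2 fold change of 0.39 ± 0.16 and averaged 4507 ± 125 CPM in the 5th and 3441 ± 181 CPM in the 3rd instar (SD, n = 3 each; adjusted p = 0.221). miR-306-x, of the miR-9 cluster, overlapped at 0.054 ± 0.14. In the 3 lists made of genomic clusters known from insects, higher and lower entries numbered 4 and 2 for miR-9 (median 0.033), 3 and 3 for miR-275 (median 0.12) and 2 and 4 for miR-34 (median -0.34), none past the adjusted p.

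**Figure D3:**
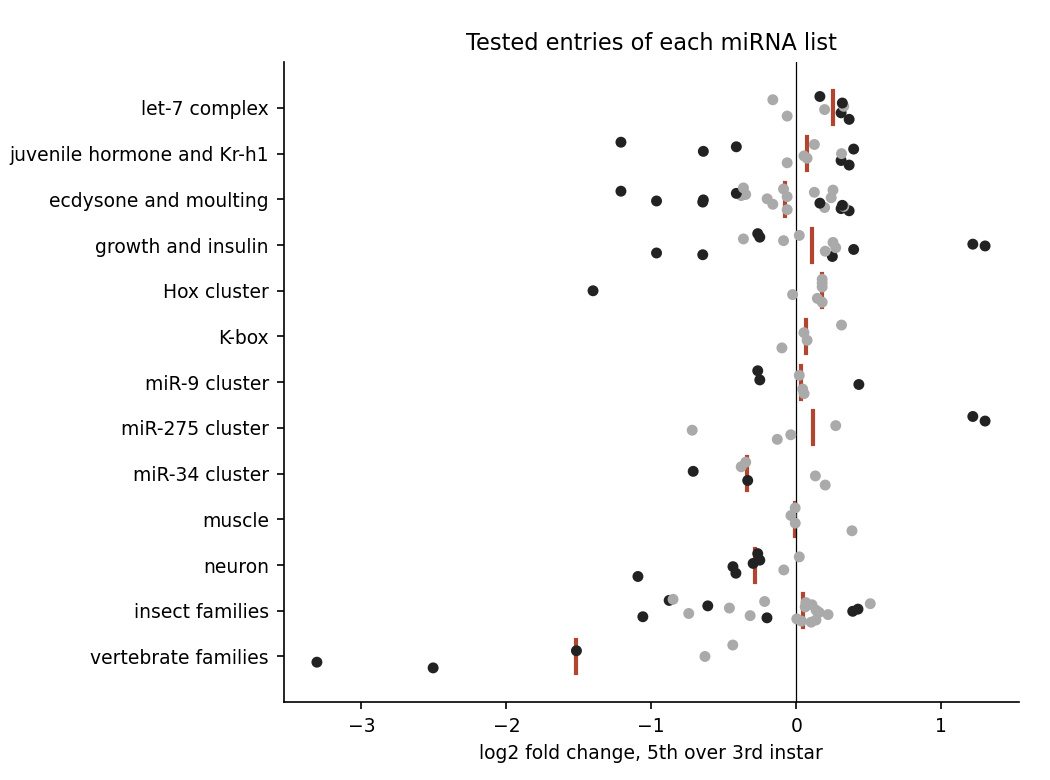
Log2 fold change, 5th over 3rd instar, of each tested entry (points; dark where the stages do not overlap) by miRNA list, with the list's median as a red bar. The vertebrate families (5 of 5 lower) and neuron markers (7 of 8 lower, 4 of 8 with library totals alone) lie left of 0 and the let-7 complex (6 of 8 higher) right of it; an entry can stand in more than 1 list.

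Summing all entries of a family gave 137 tested rows, known families with predicted entries kept single. Of these, 2 (1.46%) were called and 27 (19.7%) had an unadjusted p under 0.05. The called rows were the predicted 23 nt entry and the miR-2765 family, at 1299 ± 283 CPM in the 5th and 2643 ± 536 CPM in the 3rd instar (log2 fold change -1.02 ± 0.19, edgeR adjusted p = 0.0174). The miR-14 family, at 5666 ± 553 CPM in the 5th and 8733 ± 1684 CPM in the 3rd instar, did not pass (-0.62 ± 0.15, adjusted p = 0.0734). Without replicate 1 or replicate 3 of the 3rd instar no family row was called. Some entries of differently named families share a seed. The nested miR-307-y and miR-67-y stood at 0.43 and 0.42, and miR-31-x with miR-72-x, which is 2 bases longer, at 0.38 and -0.20. The seed of miR-8, shared with miR-200 and miR-236, held 56202 ± 6547 CPM in the 5th and 64783 ± 7860 CPM in the 3rd instar (SD, n = 3 each).

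The suffix x, y or z of a known entry marks a separate sequence of its family; the sources used here do not say what each letter stands for. The ratio of a family's suffixes within a library is free of the scaling factor. Pairs of 8 families passed the test given next, some of them on few counts. limma called 10 of 71 suffix pairs (14.1%), all with a higher ratio of the first to the second named suffix in the 5th instar, and 27 pairs (38%) did not overlap. miR-184, a family needed in the female germ line of flies, had 64, 59 and 80 counts of miR-184-x beside 43, 46 and 56 of miR-184-z in the 5th instar. The 3rd instar libraries had 64, 60 and 90 counts of miR-184-x beside 84, 77 and 110 of miR-184-z. The log2 ratio x over z was 0.48 ± 0.11 in the 5th and -0.34 ± 0.052 in the 3rd instar (SD, n = 3 each), a difference of 0.82 ± 0.21 (limma adjusted p = 0.0273), so the pair changed order between the stages. The same entry rose against the far more abundant miR-184-y as well (0.70 ± 0.20, limma adjusted p = 0.0273). For miR-71, y over z was higher by 1.41 ± 0.38 (limma adjusted p = 0.0273). This ratio rests on few counts of miR-71-z, 12, 16 and 6 in the 5th and 37, 32 and 53 in the 3rd instar. For miR-317, y over z was 4.95 ± 0.030 in the 5th and 4.12 ± 0.12 in the 3rd instar, a difference of 0.83 ± 0.22 (limma adjusted p = 0.0273). miR-316 shifted towards x (0.68 ± 0.19), and so did miR-31 (0.55 ± 0.17) and miR-8 (0.61 ± 0.19) against their z entries, at limma adjusted p of 0.0273, 0.0354 and 0.0354.

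The remaining 3 called pairs, like that of miR-71, rest on few counts. miR-279-x had 5, 5 and 8 counts in the 5th and 1, 3 and 4 in the 3rd instar, and its ratio to miR-279-z and to miR-279-y was higher by 2.14 ± 0.55 and 1.79 ± 0.54, with ranges over the 15 settings of 1.52 to 2.51 and 1.17 to 2.09. miR-200-x had 3, 2 and 1 counts in the 5th and 0, 1 and 1 in the 3rd instar. Its partner in the ratio, miR-200-y, has the sequence of miR-236-z letter for letter yet different counts, and such reads cannot be told apart by sequence. With a mean of at least 100 counts required, the miR-200 pair was not called (limma adjusted p = 0.0814). Each called pair kept its sign in all 15 settings, but no pair was called without replicate 3 of the 3rd instar or without replicate 2 of the 5th. Without replicate 3 of the 5th instar 1 other pair was called, and without replicate 2 of the 3rd instar or replicate 1 of the 5th 4 and 6 pairs were. Over all 71 pairs the ratio was higher in 48 and lower in 23, with 17 of the 22 pairs of x over z higher; the 4 names of iab-4 give the same pair 4 times.

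**Figure D4:**
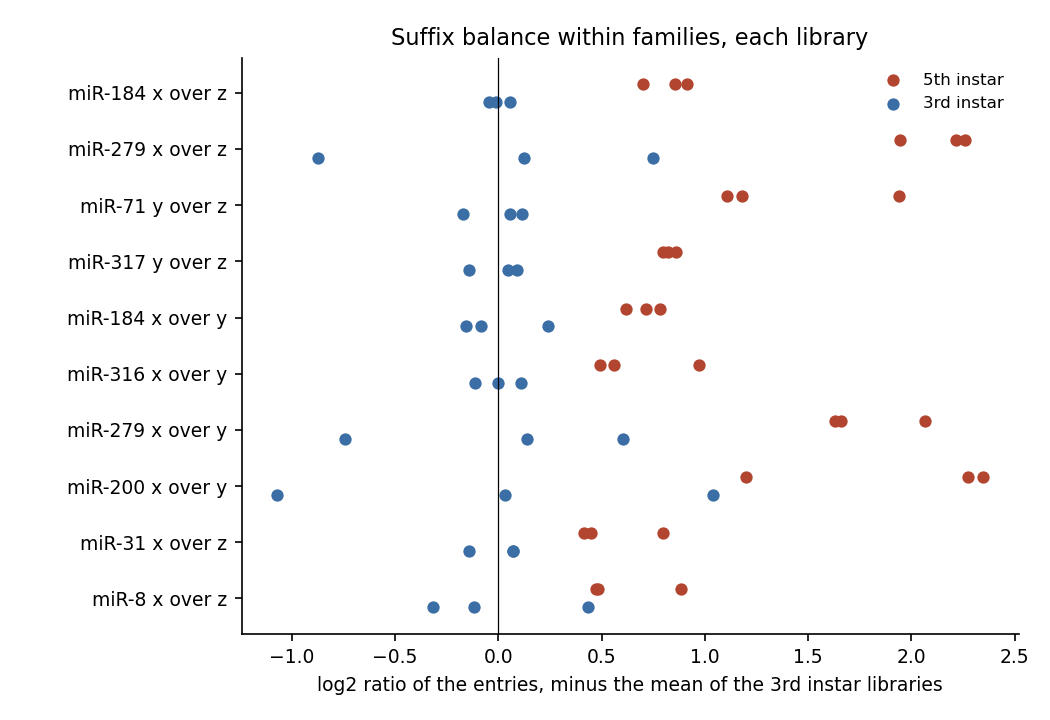
Log2 ratio of the 2 named suffixes in each nymph library, set to 0 at the mean of the 3rd instar, for the 10 called suffix pairs; the 5th instar is the upper row of each pair. The 3 libraries of the 5th instar lie to the right of all 3 of the 3rd instar in every pair, by 0.55 (miR-31) to 2.14 (miR-279 x over z) on average.

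The tested entries were also compared by length. Among 24 tested entries of 24 or 25 nt, 18 were lower, the median change was -0.25 log2 units, and the stages did not overlap for 6, all lower. That is 25% of the class, near the 29.1% of all tested entries. With library totals alone the split was 13 higher and 11 lower, at a median of 0.031 against 0.30 over all entries. The medians were -0.0074 for the 55 entries of 22 nt, 0.049 for the 26 of 23 nt, 0.13 for the 36 of 20 or 21 nt and 0.24 for the 38 of 18 or 19 nt. No entry of the 24 to 25 nt class was called. The suffix z itself had 19 entries higher and 26 lower (median -0.12), x had 33 and 19 (0.14), and y had 26 and 28 (-0.0052). By abundance the medians were -0.22 under 10 CPM, -0.018 from 10 to 100, 0.064 from 100 to 1000 and 0.053 at 1000 CPM or more. The median SD between replicates on the log2 scale was 0.53 under 10 CPM and 0.15 at 1000 CPM or more.

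Within some families a longer entry begins with the whole of a shorter one. For 14 such pairs both entries were tested, and the longer was the z entry in each. Relative to the shorter form, the longer was lower in the 5th instar in 12 of the 14, with a median difference of -0.25 on the log2 scale; these ratios do not depend on the scaling. The stages did not overlap in 4 of the 12 and in none of the other two, no larger a share than the 38% of all suffix pairs. These were miR-71-z, miR-317-z, miR-275-z and miR-125-z. miR-317-z has the bases CT added to miR-317-y, and its log2 ratio to that form was -4.98, -4.94 and -4.92 in the 5th instar, against -4.22, -4.17 and -3.98 in the 3rd. miR-71-z ends in GA beyond miR-71-x, and its ratio was -6.84, -6.65 and -8.15 in the 5th, against -6.28, -6.50 and -6.13 in the 3rd instar. Each of these libraries of the 5th instar lay below all of the 3rd. The abundant pair of miR-8, where miR-8-z has 1 base more than miR-8-y, was at -0.39, -0.72 and -0.67 in the 5th and -0.24, -0.46 and -0.23 in the 3rd instar, which overlap. The exceptions were miR-34-z (0.089) and miR-2765-z (0.72), both overlapping. All 14 pairs are also suffix pairs of the limma fit above, with the ratio turned round, so these values repeat part of that result. The 38% includes them. In that fit miR-317 y over z was called (limma adjusted p = 0.0273). miR-71 x over z, miR-275 y over z and miR-125 x over z were not (limma adjusted p = 0.119, 0.129 and 0.469). As a set, the 14 pairs were picked out after the suffix ratios had been seen and were given no test of their own. Across the table, 20 of 24 nested pairs with both entries tested, including those named as different families, had the longer form relatively lower. The stages did not overlap in 8 of the 24, also below the 38% of all suffix pairs.

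**Figure D5:**
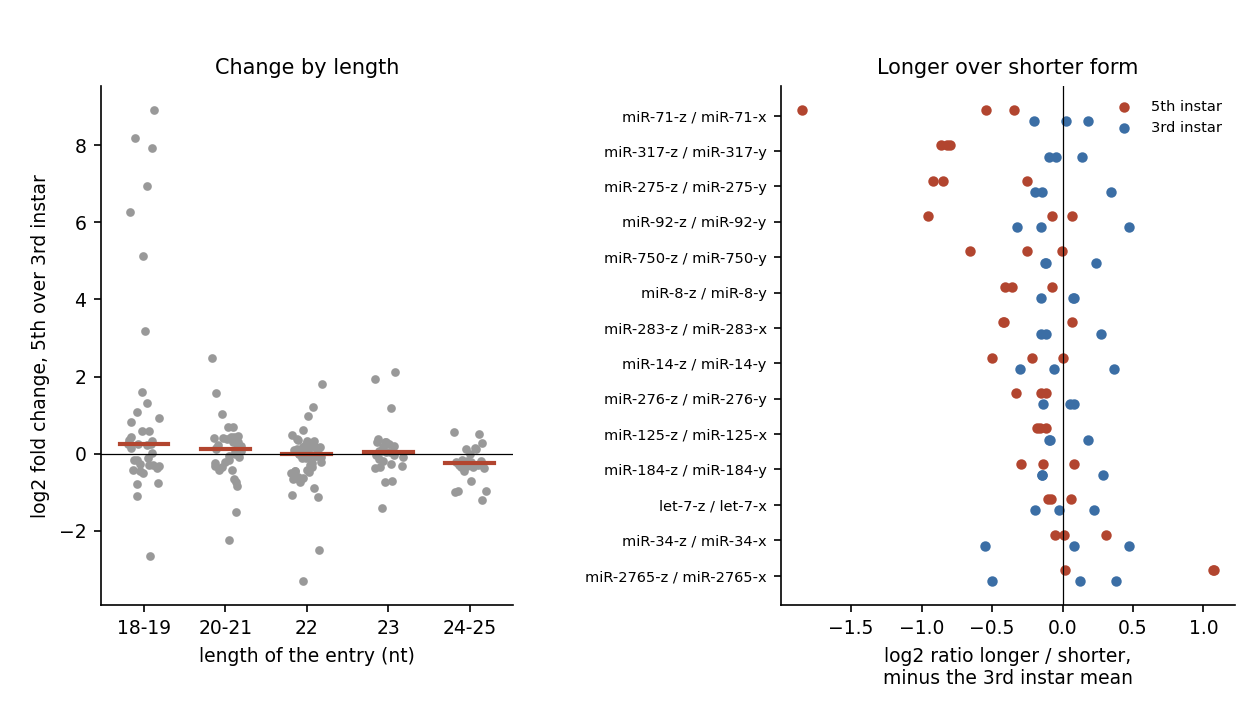
Left, log2 fold change, 5th over 3rd instar, of the tested entries by length, with the median of each class as a red bar; right, log2 ratio of the longer to the shorter form of 14 nested pairs in each nymph library, set to 0 at the 3rd instar mean, with the 5th instar as the upper row. The 24 to 25 nt class has its median at -0.25 (0.031 with library totals alone), and in 12 of 14 pairs the mean of the 5th instar lies left of 0.

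Shares of the counts by class were also compared with the dominant 18 nt entry left out of the total, and none of 19 shares compared could pass with 3 libraries a stage. Entries with suffix z then held 12.95%, 11.4% and 10.96% of the counts in the 5th instar, against 15.3%, 13.3% and 14.7% in the 3rd (two-sided exact permutation p = 0.1, the smallest that 3 against 3 can give; Benjamini-Hochberg adjusted 0.317). Entries with suffix x held 16.8%, 16.3% and 16.04% in the 5th instar, against 13.8%, 14.2% and 14.9% in the 3rd (exact permutation p = 0.1, adjusted 0.317). Both classes were apart in all libraries, as were 6 of the 19 shares. Entries of 23 nt held 30.7% ± 0.525 in the 5th and 28.9% ± 0.257 in the 3rd instar (SD, n = 3 each; exact permutation p = 0.1), also without overlap. The 24 to 25 nt class overlapped, at 10.1% ± 0.947 in the 5th and 11.5% ± 1.12 in the 3rd instar.

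Some rare entries were seen in 1 nymphal stage only. With at least 1 count in 2 or more libraries of the 5th instar and none in the 3rd there were 14 entries, and 13 the other way round. Counts in all 3 libraries of the stage were found for 2 of the 14 and for 9 of the 13. The 3rd instar libraries are deeper, so a rare entry is more easily missed in the 5th. Of the 14, 12 were 18 or 19 nt long, a length that 33.2% of all listed entries have, and of the 13, 5 were. Only 4 of these entries had enough counts for a test, by a filter that also counts the adult libraries. miR-5609-x had 37, 1 and 34 counts in the 5th instar against none in the 3rd, at least 35.9-fold higher by pooled CPM over a floor of 3 counts in the group. miR-7197-y had 41, 0 and 46 counts in the 5th instar and none in the 3rd, at least 43.3-fold higher over the same floor. miR-10136-y had 22, 6 and 6 counts and miR-10374-y 0, 16 and 6 in the 5th instar, against none in the 3rd, at least 16.9-fold and 10.96-fold higher. The 5th instar libraries also differ among themselves. Replicate 2 was low for miR-5609-x and miR-7197-y and replicate 1 was at 0 for miR-10374-y, while miR-10136-y had at least 6 counts in each. In edgeR none of these entries was called (0 of 4). In edgeR 3 of the 4 had an unadjusted p under 0.05, against 17.3% of all tested entries. The 4 were picked for having no count in the 3rd instar, so a small p is partly built into that choice. DESeq2, which called 10 entries (5.59%), called all 4. Without replicate 2 of the 5th instar edgeR called miR-7197-y too (adjusted p = 0.00384). miR-6216-z, also 18 nt long, had 215, 0 and 268 counts in the 5th instar and 1, 0 and 0 in the 3rd, and it was called by DESeq2 alone. Of entries seen only in the 3rd instar, the one with most counts was miR-10523-x, at 0 in all of the 5th and with 5, 15 and 2 counts in the 3rd instar.

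Thinned to a common depth of 1918962 counts, the 5th instar libraries held an expected 289.2, 273.0 and 293.6 entries, against 270.5, 263.3 and 270.3 in the 3rd. The stages did not overlap (difference 17.2 entries, two-sided exact permutation p = 0.1, the smallest possible). The dominant 18 nt entry leaves unequal depth to the others at that total. With it left out and the rest thinned to 630083 counts, an alternative chosen after the data were seen, the libraries held 286.3, 272.0 and 285.7 entries in the 5th and 268.4, 273.5 and 275.8 in the 3rd instar. These overlap (difference 8.76 entries, two-sided exact permutation p = 0.3). Counting entries with 5 or more counts without thinning turned the direction, at 194, 181 and 202 in the 5th and 194, 190 and 222 in the deeper 3rd instar libraries.

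In adults, the 4 entries past the adjusted p stood nearer to the 5th than to the 3rd instar. The predicted 23 nt entry averaged 133.4 ± 5.62 CPM in the adult libraries and miR-2765-x 946 ± 24.8 CPM (SD, n = 3 each). miR-14-y was at 5749 ± 159 CPM and miR-21-x at 1.38 ± 0.760 CPM. Among the entries that missed the adjusted p, miR-993-y was at 12.6 ± 1.17 CPM and miR-252-x at 62.5 ± 7.64 CPM in adults, again nearer to the 5th instar. All these entries were picked for their gap between the nymphal stages, and how many of all tested entries stand nearer to the 5th instar was not counted. Over all tested entries, log2 CPM of adult libraries correlated with the 5th instar at 0.950 to 0.975 and with the 3rd at 0.937 to 0.962. The adult values are levels only, and no adult contrast was tested here.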

How the data were processed

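Total RNA was size-selected on a gel (15 to 30 nt, per the labels' protocols), ligated to adapters, amplified and read as 50 bp single ends on an Illumina HiSeq instrument. No source used here names the aligner, reference or counter. The deposited table holds raw read counts per entry, per the file headers, and the authors' TPM values, which scale each count by a library total of which the listed counts make up 97.2% to 98.6%; TPM was used only for this check. Reads carry no molecular identifiers, so floors (3 counts) cover counting error only.

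Members, lists and rules were chosen with earlier results of these data known. Counts were scaled by TMM (factors 0.854 to 1.166), filtered by edgeR's rule by stage (179 of 365 entries) and fitted with edgeR 4.0.16 (R 4.3.3, robust quasi-likelihood, all 9 libraries, 5th minus 3rd instar). The limits for a call were those the study states (0.05 for the adjusted p, 1 for the size of the log2 fold change). SE is the absolute log2 fold change over the square root of F. Families were summed and refitted. Suffix ratios (log2, pseudocount 0.5, mean of at least 20 counts per pair in each stage) were tested with limma 3.58.1 (adjusted p under 0.05). Shares and detection used exact permutation over 3 against 3 libraries. The procedures were tested on simulated data. Named were entries past the adjusted p, the 15 with the smallest p, the 10 most abundant, up to 3 members of each list (all of lists under 6), nested or identical partners and family members; pairs of nested forms and entries at 0 in a stage were chosen after their values were seen. Alternatives included DESeq2 1.42.0, other scalings and filters, only nymphs, a replicate block and leaving out each library. No genome was used.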

Additional observations from a re-analysis of the deposited data

How the results depend on the processing

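The count of called entries, 3, was 10 with DESeq2 (6 higher, 4 lower, the 3 among them) and 1 with library totals without factors; leaving out a library gave 1 to 3. DESeq2's others were miR-143-y, miR-993-y and 5 entries of 18 or 19 nt with 0 or 1 count in the 3rd instar. Called families, 2, were 9 with DESeq2, 1 with library totals and 0 to 3 without a library. Called suffix pairs, 10, were 0 to 13 without a library and 10 to 14 under other pseudocounts, filters and fits except 9 at 100 counts. The cause of these differences was not tested. Whether replicate numbers 1 to 3 mark a shared batch is not stated, and the values do not settle it. Same-numbered deviations of the stages correlated at -0.114, 0.317 and 0.420, and differently numbered ones at -0.434 to 0.178. With the replicate block, 2 entries, 1 family and 13 suffix pairs were called, and miR-1-y turned to 0.0028. Leaving out the dominant entry before scaling turned miR-1-y to 0.028 and miR-133-z to 0.028, and the fit of only nymphs to 0.022 and 0.018. With library totals miR-9-z (0.013), miR-9-x (0.032), miR-11-y (0.18), miR-8-y (0.19), miR-1-z (0.25), miR-133-z (0.29) and miR-1-y (0.28) turned positive. miR-276-y turned negative with DESeq2 and RLE factors (-0.0052 each), no filter (-0.031) and the stricter filter (-0.0028). Leaving out 1 library turned the sign of some uncalled entries, whose log2 fold changes ranged from -0.61 to 0.032 (miR-2765-z), -0.0063 to 0.16 (miR-13-y), -0.13 to 0.44 (iab-4-x), -1.25 to 0.19 (miR-30-x), -0.15 to 0.077 (miR-11-y), -0.15 to 0.020 (miR-8-y), -0.079 to 0.034 (miR-1-z), -0.040 to 0.14 (miR-133-z), -0.079 to 0.083 (miR-1-y) and -0.062 to 0.105 (miR-276-y). Differences of shares, in percentage points, ranged from -0.516 to 0.327 for suffix z and from -0.215 to 0.552 for 24 nt or more. With the dominant entry left out of the total they turned for predicted entries (0.188), 18 to 19 nt (0.171), 22 nt (-0.992) and 24 nt or more (-1.39). The difference in detection, 17.2 entries, was 8.76 with the dominant entry left out before thinning and turned to -9.67 with at least 5 counts and no thinning. Depth limits the entries under 10 CPM, whose median SE was 0.60 against 0.15 at 1000 CPM or more.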
